A study of Homo sapiens with 18 samples.

Results

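The genes described here were the SMAD and ID target genes, a set of 9 genes that respond to TGF-beta (transforming growth factor beta) or BMP (bone morphogenetic protein): SMAD3, SMAD6, SMAD7, SKIL, ID1, ID2, ID3, ID4 and TGFBI. They were the rows of the deposited count table whose Ensembl identifiers map to these symbols, 9 of 58302 genes listed. RNA was sequenced from U87MG, an established human glioblastoma cell line, in a study of ferroptosis, the iron-dependent death of cells by lipid peroxidation. There were 2 control libraries, from cells labelled as grown in normal condition, and 2 Erastin libraries, from cells given 10 μM Erastin for 72 h. Erastin is a small molecule that blocks system Xc-, the transporter that brings cystine into the cell. All cells were in the same medium with serum, the control labels name no vehicle, and a single line was used.

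TGF-beta and BMP ligands bind paired type I and type II receptors on the cell surface. The activated receptors phosphorylate SMAD proteins, SMAD2 and SMAD3 for TGF-beta and SMAD1, SMAD5 and SMAD9 for BMP, which join SMAD4 and enter the nucleus to act on DNA. SMAD6, SMAD7 and SKIL are themselves induced by the pathway and restrain it. The ID genes are classical BMP targets whose proteins lack a DNA-binding region and hold basic helix-loop-helix (bHLH) factors away from DNA. In glioblastoma, TGF-beta and ID proteins are best known for their part in invasion and in the maintenance of stem-like cells.

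The reference sequences below show the DNA next to the inhibitory genes, because SMAD6 fell while its closest relative SMAD7 (slightly) and SKIL rose. Each is the 250 bases upstream of the transcript start in RefSeq (GRCh38.p14), read 5′ to 3′ on the strand of the gene. All 9 genes had an entry in that table. SMAD6 lies at chr15:66701986-66702235 on the plus strand, SMAD7 at chr18:48950966-48951215 on the minus strand and SKIL at chr3:170357465-170357714 on the plus strand. Capitals mark CAGAC or its reverse complement GTCTG, the core that SMAD3 and SMAD4 bind, and, in SMAD6, the palindrome GTCTAGAC.
SMAD6: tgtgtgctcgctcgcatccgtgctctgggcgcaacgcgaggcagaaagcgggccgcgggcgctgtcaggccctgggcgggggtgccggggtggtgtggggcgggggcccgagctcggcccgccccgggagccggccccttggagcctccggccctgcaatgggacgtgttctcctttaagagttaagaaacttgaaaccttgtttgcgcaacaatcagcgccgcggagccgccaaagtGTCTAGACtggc
SMAD7: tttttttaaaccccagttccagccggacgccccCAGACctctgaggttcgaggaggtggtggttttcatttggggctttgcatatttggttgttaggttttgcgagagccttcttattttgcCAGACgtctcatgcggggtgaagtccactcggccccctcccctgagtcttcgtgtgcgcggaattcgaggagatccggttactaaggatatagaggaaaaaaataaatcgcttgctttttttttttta
SKIL: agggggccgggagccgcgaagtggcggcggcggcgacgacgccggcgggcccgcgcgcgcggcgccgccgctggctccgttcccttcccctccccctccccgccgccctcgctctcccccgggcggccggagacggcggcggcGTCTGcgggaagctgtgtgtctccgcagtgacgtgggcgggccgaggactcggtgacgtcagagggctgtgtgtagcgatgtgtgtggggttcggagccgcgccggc

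On both strands, CAGAC was found in the upstream sequence of 4 of the 9 genes (SMAD7, SKIL, ID3 and ID4) and in 38.0% of 35116 RefSeq promoters. SMAD7 held 2 copies, and SKIL, ID3 and ID4 held 1 each. Among these 4, SMAD7 and SKIL were higher in Erastin, ID4 was lower and ID3 had no count. GTCTAGAC, whose matches share no base with a match of CAGAC in these windows, was found in the window of SMAD6 alone among the 9. It was in 0.18% of all promoters. The windows follow RefSeq starts, which are not all those of the annotation used for counting. The SMAD7 window stops at base 48950966, but SMAD7 starts at 48950711 in that annotation, and the bases between were not searched. The windows of SMAD3, ID2 and ID3 lie inside their genes in that annotation, so the CAGAC of ID3 is within the counted gene. Those of SMAD6, SKIL, ID1 and TGFBI end inside theirs. The GTCTAGAC of SMAD6 lies across the annotated start of that gene, base 66702228. Of the other words searched, GGCGCC was in 3 of the 9 (16.38% of all promoters), GGAGCC in 6 (30.64%), CACGTG in 1 (6.34%) and TGACTCA in 0 (4.2%). A match is a description of the letters in this window, and no binding was measured here.

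The ID genes resemble each other in the stretch that codes for the helix-loop-helix, and the 60 bases shown here are the window with most identities to ID1 in the coding sequences of the other three. They were taken from the canonical transcripts of GENCODE release 44 on GRCh38, in the coding direction. The window begins at coding base 262 in ID1, 172 in ID2, 187 in ID3 and 259 in ID4. Capitals mark the positions that differ among the 4 genes.
ID1: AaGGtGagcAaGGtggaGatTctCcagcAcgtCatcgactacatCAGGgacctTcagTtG
ID2: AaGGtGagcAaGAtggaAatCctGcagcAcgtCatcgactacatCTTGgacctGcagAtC
ID3: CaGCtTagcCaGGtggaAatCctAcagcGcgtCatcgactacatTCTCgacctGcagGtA
ID4: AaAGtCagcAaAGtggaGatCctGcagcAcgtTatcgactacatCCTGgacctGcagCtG

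Of these 60 bases, 41 were identical in all 4 genes. The longest run shared by any pair of the 4 transcripts was 21 bases, between ID1 and ID2. The counts left out reads that matched more than 1 place, so sequence shared with other places of the genome can lower a gene's count. Of the 31-base words of the canonical ID2 transcript, 38.3% also occurred elsewhere in the primary genome, which makes the level of ID2 uncertain. The share was 0% for ID1 and ID3, 0.94% for ID4, 2.99% for SKIL and at most 0.03% for the others.

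The 4 libraries held between 29412656 and 31513519 counts on genes. Of the glioma-line markers, VIM, CD44 and CHI3L1 were abundant in control, and each was lower in Erastin past the adjusted p (log2 fold changes of −0.60, −0.36 and −2.26). CHI3L1 fell from 205 to 48.8 TPM and NES from 22.6 to 2.12 TPM (a level per exon length, scaled to the same total in every library). SOX2 and S100B were at or near 0. GFAP stood at 0.402 TPM in control and 0.795 TPM in Erastin without passing the adjusted p (0.0696, edgeR). The summed level of the 7 markers was 2351 and 2439 TPM in the control libraries and 1712 and 1793 TPM in the Erastin libraries. The summed level of 10 markers of immune, endothelial, epithelial, neuronal and oligodendrocyte cells was 38.0 and 44.8 TPM in control and 6.28 and 6.36 TPM in Erastin, and most of it was SNAP25. Of the endothelial markers, VWF was higher, against the sum, with 4 counts in each control library and 17 and 32 in Erastin (log2 fold change 2.58, edgeR adjusted p = 0.0125). PECAM1 was lower, with 138 and 188 counts in control and 31 and 33 in Erastin (log2 fold change −2.34, edgeR adjusted p = 4.81e-05). CDH5 had 1 count, in Erastin replicate 1 only. The immune marker AIF1 was at 0 in all 4 libraries. The part of these marker changes in the results was not tested. In bulk RNA, a smaller share of cells with a transcript and less of it per cell cannot be told apart.

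The 8 SMAD and ID target genes that could be tested all passed the adjusted p between Erastin-treated and control cells in edgeR, and 6 of them did so in each of 12 alternative fits. SMAD7 passed in 5 of the 12 and ID2 in 9, and neither passed with DESeq2. SMAD3, SMAD6, ID1, ID2, ID4 and TGFBI were lower after Erastin, SMAD7 and SKIL were higher, and ID3 had no count in any library. SMAD3 (2.58-fold), SMAD6 (2.24-fold) and ID4 (2.87-fold) fell past both thresholds of the study, which asked for an adjusted p under 0.05 and for log2 fold changes of 1 or more up or down (edgeR quasi-likelihood test, Benjamini-Hochberg adjustment over 16751 genes). No gene of the 9 rose past both thresholds in edgeR or in DESeq2, and 2 passed the adjusted p in that direction in edgeR.

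These counts are read against the response of all tested genes, which was broad. Past the adjusted p alone, 6 of the 8 were lower, against 23.7% of all tested genes, and 2 were higher, against 23.2%. In either direction 47.0% of tested genes passed it. Past both thresholds, 3 of the 8 were lower, against 9.34% of all genes, and 0 were higher, against 6.24%, with 15.6% of all genes in either direction. The 2 control and 2 Erastin libraries did not overlap for any of the 8 genes, with 6 lower (36.9% of all tested genes) and 2 higher (36.7%). The median log2 fold change was −0.81 over the 8 genes and −0.0026 over all tested genes.

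**Figure D1:**
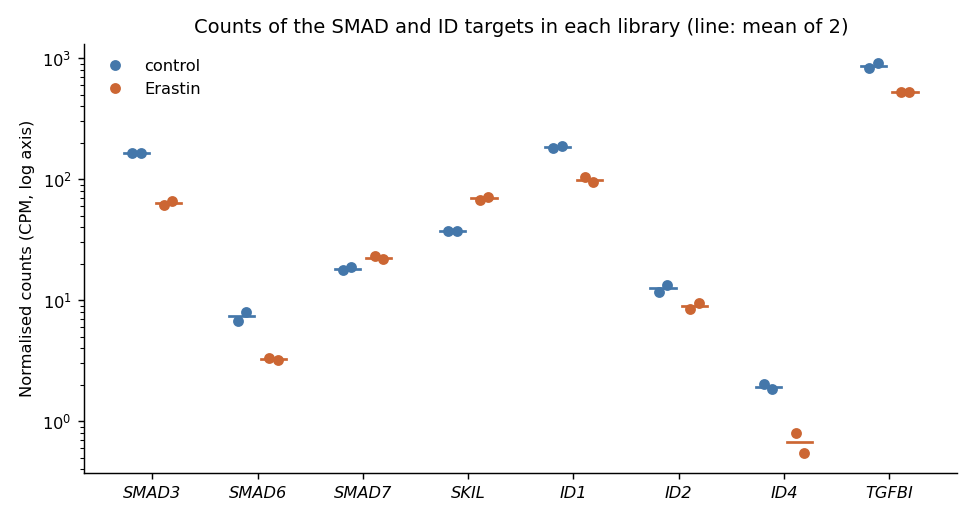
Normalised counts (CPM, counts scaled to library size with TMM factors, log axis) of the 8 tested genes in each library. Points are libraries and lines are means of 2, blue for control and orange for Erastin. The groups of points do not overlap for any gene, with Erastin above control only for SMAD7 and SKIL. ID3, at 0, is not drawn.

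SMAD3 carries the TGF-beta signal from the receptor to DNA. It lies at chr15:67063763-67195195 on the plus strand of GRCh38. It had 5031 and 5099 counts in control and 1822 and 2081 counts in Erastin. Both Erastin libraries were far below both controls. The normalised level was 164 ± 0.279 CPM (counts scaled to library size, SD, n = 2) in control and 63.6 ± 3.76 CPM in Erastin, with a log2 fold change of −1.37 (SE 0.0722, edgeR adjusted p = 3.44e-08). SMAD3 was the only one of the 9 that passed glmTreat of edgeR, which asks whether a change exceeds a log2 fold change of 1 and not 0 (adjusted p = 0.000673). An antisense gene, ENSG00000259347, shares 182 exon bases with SMAD3, which is 2.0% of its exon length, and reads there cannot be assigned to a strand. It held between 9 and 25 counts per library.

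SMAD6 and SMAD7, the inhibitory SMADs, compete with the signalling SMADs for the receptors and for SMAD4, SMAD6 mainly in BMP signalling and SMAD7 in both branches. They moved in opposite directions. SMAD6 (chr15:66702228-66782848, plus strand) had 207 and 246 counts in control and 100 and 101 counts in Erastin. The 2 Erastin libraries were nearly equal and below both controls. SMAD6 fell from 7.34 ± 0.813 to 3.28 ± 0.0911 CPM (SD, n = 2), which on the log2 scale is a change of −1.16 (SE 0.212, edgeR adjusted p = 0.000767).

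SMAD7 (chr18:48919853-48950711, minus strand) had 542 and 582 counts in control and 690 and 688 in Erastin. The Erastin libraries lay above the controls by a small margin, 22.5 ± 0.829 against 18.2 ± 0.714 CPM (SD, n = 2). This was a log2 fold change of 0.30 (SE 0.115, edgeR adjusted p = 0.0481), next to the threshold. The adjusted p rose above 0.05 with DESeq2 (0.127), without the filter on low counts (0.0893) and with any 1 library left out. It was then 0.169 without control replicate 1, 0.0631 without control replicate 2, 0.220 without Erastin replicate 1 and 0.107 without Erastin replicate 2. The 95% interval of the log2 fold change ran from 0.051 to 0.55 for SMAD7 and from −1.63 to −0.70 for SMAD6. The level of SMAD7 per length was 5.78 ± 0.414 times that of SMAD6 in control and 15.9 ± 0.144 times in Erastin (SD, n = 2), taken over all annotated exons. With the lengths of the canonical transcripts and the same counts, a choice made after the data were seen, it was 2.86 ± 0.205 times in control and 7.86 ± 0.0714 times in Erastin.

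SKIL encodes SnoN, a co-repressor that sits on SMAD complexes and is degraded when TGF-beta signals. The gene lies at chr3:170357678-170396835 on the plus strand. It had 1142 and 1168 counts in control and 2028 and 2245 counts in Erastin. Both Erastin libraries were well above both controls. SKIL rose from 37.5 ± 0.177 to 69.6 ± 2.58 CPM (SD, n = 2), by 1.86-fold (log2 fold change 0.89, SE 0.0805, edgeR adjusted p = 2.98e-06), the largest rise among the 9 genes, but under the fold threshold. Per length of all annotated exons, SKIL stood at 0.267 ± 0.00172 times the level of SMAD3 in control and at 1.28 ± 0.0284 times in Erastin (SD, n = 2). Per length of the canonical transcripts, it stood at 0.206 ± 0.00132 and 0.990 ± 0.0219 times, so whether SKIL exceeded SMAD3 after Erastin depends on the length used.

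ID1 was by far the most abundant ID gene. It lies in 1 exon block of 1233 bases in this annotation at chr20:31605283-31606515 on the plus strand. Its counts were 5530 and 5891 in control and 3098 and 2956 in Erastin. ID1 fell from 185 ± 6.21 to 98.8 ± 6.71 CPM (SD, n = 2), with a log2 fold change of −0.91 (SE 0.0732, edgeR adjusted p = 1.20e-06). The change was close to the fold threshold, without passing it. ID1 made up 95.9% ± 0.194 of the summed TPM of the ID genes in control and 94.9% ± 0.590 in Erastin (SD, n = 2). The summed level of the family was therefore mainly that of ID1, at 542 ± 35.5 TPM in control and 333 ± 25.2 TPM in Erastin.

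ID2, which in the nervous system is known to hold back differentiation, lies at chr2:8678845-8684453 on the plus strand. It had 354 and 417 counts in control and 252 and 295 in Erastin. The lowest control library was above the highest Erastin library. ID2 fell from 12.5 ± 1.31 to 8.91 ± 0.681 CPM (SD, n = 2), with a log2 fold change of −0.49 (SE 0.157, edgeR adjusted p = 0.0231). The adjusted p was 0.101 without control replicate 2, 0.129 without Erastin replicate 1 and 0.0662 with DESeq2. The antisense gene ID2-AS1 shares 38 exon bases (1.72%) with ID2 and had 4, 28, 2 and 2 counts in control replicates 1 and 2 and Erastin replicates 1 and 2.

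ID4, an ID gene of neural precursors, lies at chr6:19837386-19840684 on the plus strand and was scarce. It had 62 and 57 counts in control and 24 and 17 counts in Erastin. The 2 groups were apart, on few counts. ID4 fell from 1.93 ± 0.136 to 0.672 ± 0.185 CPM (SD, n = 2), with the largest change of the set and the widest error (log2 fold change −1.52, SE 0.420, edgeR adjusted p = 0.0107). Fits that each lacked 1 library put the change of ID4 between −1.83 and −1.26 on the log2 scale, still past both thresholds. Among the 9508 tested genes that averaged 10 CPM or more, those whose centred log2 CPM over the 4 libraries lay nearest to that of ID4 were MPST, HNRNPA1L3 and PASK, at distances of 0.0972, 0.106 and 0.125 on the log2 scale. HNRNPA1L3 is close in sequence to HNRNPA1, so its own count is uncertain.

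TGFBI is an extracellular matrix protein that was first found as a gene induced by TGF-beta. It lies at chr5:136028895-136063818 on the plus strand. It had 25208 and 28099 counts in control and 15709 and 16620 counts in Erastin, the most counts of the 9 genes. TGFBI fell from 864 ± 56.7 to 527 ± 2.66 CPM (SD, n = 2), with a log2 fold change of −0.71 (SE 0.0671, edgeR adjusted p = 4.25e-06).

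**Figure D2:**
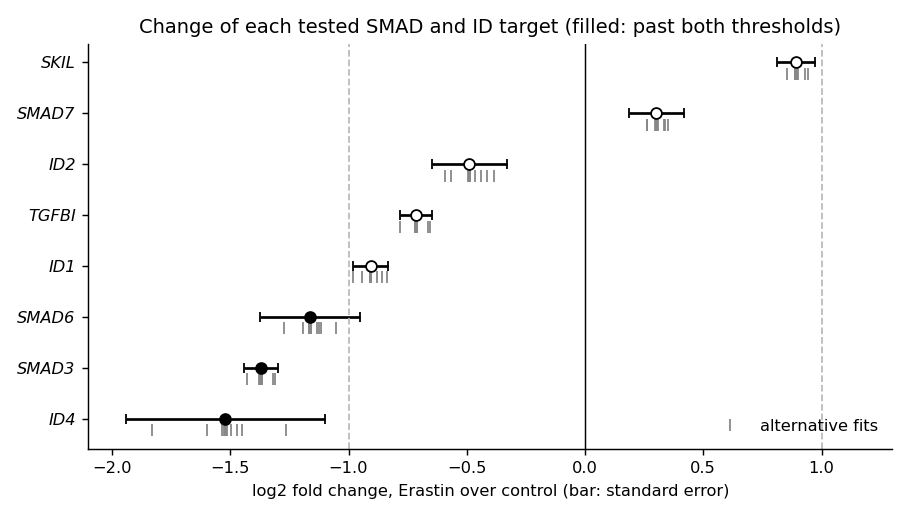
Log2 fold change of each tested gene, Erastin over control. Points with bars are the edgeR estimates with standard errors, filled where both thresholds were passed, grey ticks are the alternative fits, and dashed lines mark a change of 1. SMAD3, SMAD6 and ID4 lie left of −1, and the ticks of no gene cross 0.

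Levels between genes were compared per exon length, in TPM. In control cells the order was ID1 (519 TPM), TGFBI (383 TPM), SMAD3 (62.3 TPM), ID2 (19.6 TPM), SMAD7 (17.1 TPM), SKIL (16.6 TPM), SMAD6 (2.97 TPM), ID4 (2.84 TPM) and ID3 at 0. The libraries of ID2 and SMAD7, of SMAD7 and SKIL, and of SMAD6 and ID4 overlapped, so these neighbours did not differ beyond their spread at this length. In Erastin-treated cells ID1 (316 TPM) and TGFBI (266 TPM) still led. SKIL (35.3 TPM) stood above SMAD3 (27.5 TPM) there, followed by SMAD7 (24.0 TPM), ID2 (15.9 TPM), SMAD6 (1.51 TPM) and ID4 (1.13 TPM), and no neighbours overlapped. Several places depend on the length used. For the canonical transcripts only the lengths of the 9 genes were changed. The values were not scaled again to the same total, so they serve only to compare these genes with each other. With the canonical transcript in place of all annotated exons, TGFBI stood above ID1 in control (1102 and 651 TPM) and in Erastin (766 and 396 TPM). ID2 (33.3 TPM) then stood apart from SMAD7 (18.9 TPM) in control, and SMAD6 (6.64 TPM) from ID4 (1.72 TPM), while SMAD7 and SKIL (18.1 TPM) still overlapped. The canonical transcript of ID4 (3873 bases) is longer than the exons counted for it (2344 bases), which lowers its value there and widens its distance from SMAD6. In Erastin, SMAD3 (38.8 TPM) and SKIL (38.3 TPM) overlapped at the canonical lengths, as did ID2 and SMAD7.

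**Figure D3:**
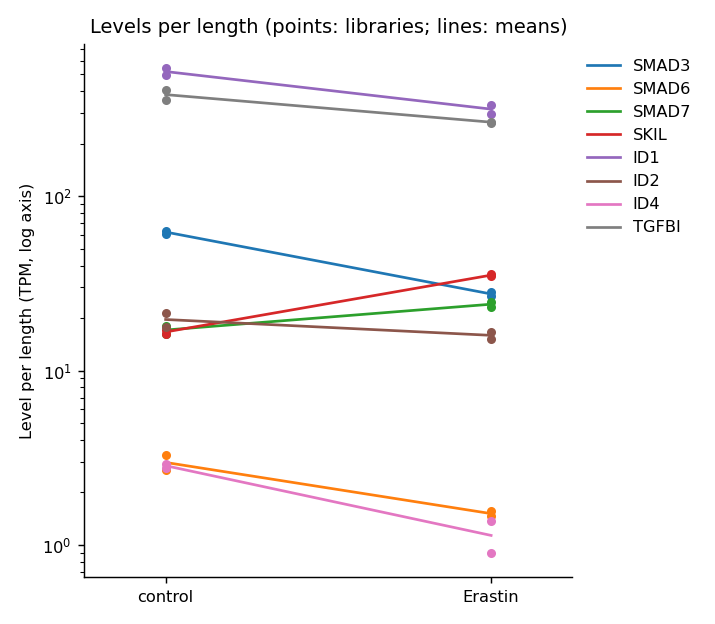
Level per exon length (TPM, log axis) of the 8 tested genes in control and Erastin, with a point for each library and a line between the means. At this length the lines of SKIL and SMAD3 cross, from 16.6 and 62.3 TPM in control to 35.3 and 27.5 TPM in Erastin. With the lengths of the canonical transcripts their Erastin libraries overlap.

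ID3, the remaining ID gene, had 0 counts in each of the 4 libraries. It lies on chromosome 1 at chr1:23557918-23559794 on the minus strand, with 1797 exon bases. A count of 0 allows up to 3 counts, which is a level of 0.0955 to 0.100 CPM depending on the library and covers counting error only. None of the 31-base words of its canonical transcript occurred elsewhere in the genome or on alternate scaffolds. Its neighbours were looked at after this value was seen. ID3 ended a run of 10 consecutive annotated genes at 0 counts in all 4 libraries (chr1:23359448-23559794, 200.3 kb), 5 of them protein-coding: ZNF436, TCEA3, ASAP3, E2F2 and ID3. A count of 0 was common among annotated genes, since only 23519 to 23990 of the 58302 listed had a count in each library.

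On one side of that run HNRNPR, a ribonucleoprotein of nearly all cells, had 0 and 2 counts in control and 0 and 4 in Erastin. Its paralog SYNCRIP on chromosome 6 had between 5996 and 6466 counts per library. On the other side MDS2, the gene next to ID3, had 2 and 1 counts in control and 10 and 27 in Erastin. The nearest genes with at least 100 counts were LUZP1 on one side (2068 and 2160 counts in control, 3597 and 3941 in Erastin) and RPL11 on the other (between 9375 and 13153). The 20 genes between them, over 514 kb, held 54 counts in all 4 libraries together. CDKN2A and CDKN2B on chromosome 9, which U87MG is known to lack, were at 0 in all 4 libraries too. DNA that is absent and a gene that is not transcribed cannot be told apart from counts, and the DNA libraries of the series were not analysed here.

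**Figure D4:**
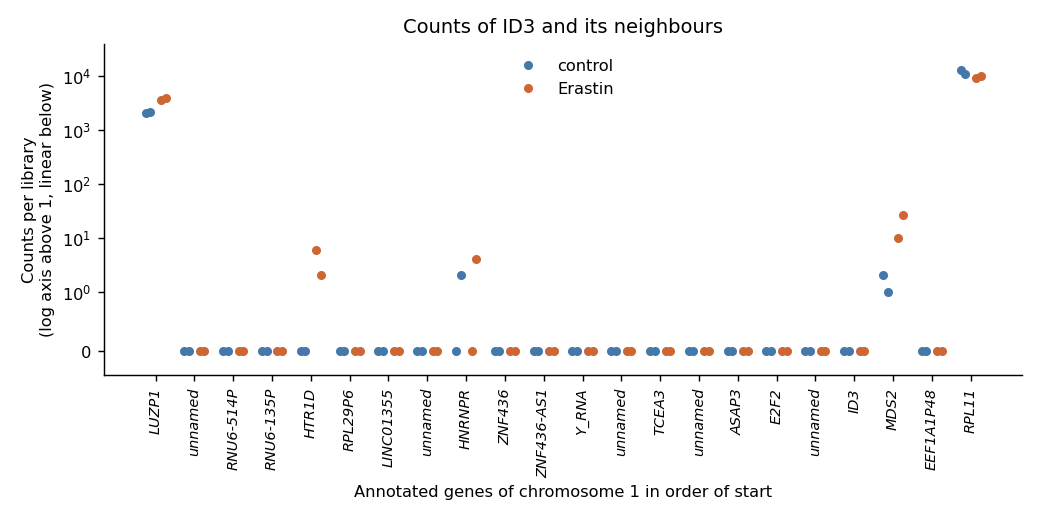
Counts in each library for ID3 and the annotated genes around it, in order of start along chromosome 1 (log axis above 1, linear below). Blue points are control and orange points Erastin libraries. The 20 genes between LUZP1 and RPL11 held 54 counts in all, and the 10 genes from ZNF436 to ID3 held 0.

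The other genes of the pathway were taken as 8 lists with 85 genes, of which 66 were tested. Past the adjusted p, 22 (33.3%) were higher and 30 (45.5%) lower, against 23.2% and 23.7% of all tested genes. Past both thresholds 8 (12.1%) were higher and 13 (19.7%) lower, against 6.24% and 9.34%. The counts in the lists that follow are those past the adjusted p. Their median log2 fold change was −0.30. No list was tested as a set, and the lists are described by their counts and medians, beside −0.0026 for all tested genes.

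Of 10 tested ligands, 7 were lower and 3 higher (median −0.75). TGFB2 fell from 42.6 ± 0.752 to 13.3 ± 0.0689 CPM (SD, n = 2) and TGFB3 from 8.65 ± 0.120 to 3.83 ± 0.259 CPM. TGFB1, the founding ligand of the family, had a log2 fold change of −0.80. GDF15, a stress-induced distant relative of the family, rose from 73.6 ± 1.51 to 550.0 ± 34.0 CPM, and INHBA, the activin A subunit, from 0.827 ± 0.151 to 2.35 ± 0.103 CPM.

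Among 5 tested antagonists, which bind ligands outside the cell or are related to those that do, 3 were lower and 1 higher (median −0.28). FSTL1 fell by 1.98 and BMPER by 0.71 on the log2 scale, while FSTL3, which binds activins, rose by 1.09. The rise of FSTL3 was under the fold threshold without control replicate 1 (0.92) or Erastin replicate 1 (0.94). Of 12 tested receptors, 5 were lower and 4 higher (median −0.43). The co-receptors ENG and TGFBR3 had log2 fold changes of −1.12 and −1.09 (TGFBR3 −0.97 without control replicate 1, under the fold threshold). Kinases went both ways. The 4 higher receptors were kinases, with TGFBR1 at 0.73 and BMPR2 at 0.56. The remaining lower receptors were kinases too, TGFBR2 (−0.73), ACVR2B (−0.66) and ACVR1B (−0.35).

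Of 5 other SMAD genes, SMAD4 and SMAD5 were higher (log2 fold changes of 0.31 each), and SMAD1, SMAD2 and SMAD9 did not pass the adjusted p. The 5 log2 fold changes lay between −0.38 and 0.31 (median 0.14). Among 11 tested regulators of SMAD proteins, 6 were higher and 1 lower (median 0.43). BAMBI, a decoy receptor, had 4 and 8 counts in control and 103 and 80 in Erastin (log2 fold change 3.92, SE 0.478), and PMEPA1, which keeps SMADs from the receptor, rose by 1.20. NEDD4L, a ubiquitin ligase of SMADs, fell by 0.33 on the log2 scale.

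Of 12 other TGF-beta targets, 7 were lower and 4 higher (median −0.41). The matrix genes FN1 and COL1A1 fell by 3.39 and 1.99 on the log2 scale, FN1 from 5192 ± 327 to 496 ± 33.3 CPM (SD, n = 2). CDKN1A, an inhibitor of the cell cycle that p53 also induces, rose by 2.43, and SNAI2, a repressor of epithelial genes, by 0.81. Of 6 tested BMP targets other than the ID and SMAD genes, 4 were lower and 1 higher (median −0.51). ATOH8 had a log2 fold change of −2.09 and MSX1 of −0.74. HES1, the 1 higher, had few counts, 5 and 2 in control and 16 and 19 in Erastin (log2 fold change 2.29, SE 0.811).

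Of 5 tested bHLH factors, the proteins that ID proteins bind or that compete with them, 3 were lower and 1 higher (median −0.67). TCF4 and TWIST1 had log2 fold changes of −1.06 and −1.15, and TCF12 of 0.32. TCF3, another partner of ID proteins, had a log2 fold change of −0.67.

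**Figure D5:**
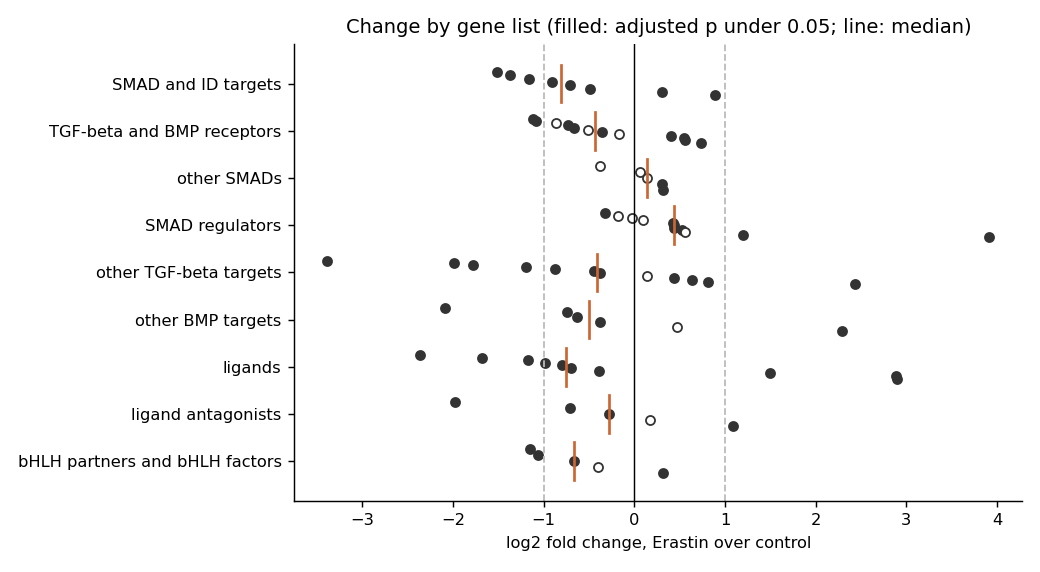
Log2 fold change (Erastin over control) of the tested SMAD and ID targets, on top, and of the tested genes of the 8 pathway lists. Each point is a gene, filled where the adjusted p was under 0.05, orange lines are list medians and dashed lines mark a change of 1. The median was −0.81 for the SMAD and ID targets, and the list medians ran from −0.75 for ligands to 0.43 for SMAD regulators.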

How the data were processed

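Total RNA gave 4 libraries of U87MG cells. Per the file header, the authors deposited raw counts of reads per gene, written by featureCounts 2.0.3 with the Ensembl release 90 annotation of GRCh38. The submitters' processing notes name HISAT2 2.1.0 and featureCounts 2.0.4. Reads were counted without strand, the reads of a pair separately, and multi-mapped reads were left out. The deposited values were also tested for the decimals of estimated counts, and all were whole. ChIP-seq and HiChIP data were not analysed here.

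Genes were filtered with filterByExpr (minimum count 10), scaled by TMM and tested in R 4.3.3 with edgeR 4.0.16 (quasi-likelihood test, two-sided, Benjamini-Hochberg adjustment). With 2 libraries a group, the smallest p that exact permutation allows is 0.333. The design text of the series calls the libraries biological replicates. TPM used the exon lengths of the table. The test was repeated with DESeq2 1.42.0, with RLE size factors, with library totals, with no filter, 10 counts in every library, a replicate block, thinned counts, read pairs, glmTreat and each library left out. The scripts were tested on simulated data. Reads without molecular identifiers are not independent molecules.

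The genes and lists were chosen with earlier results of these data known. Named were the 9 genes, up to 2 genes per direction and list with the largest change (adjusted p under 0.05, mean of at least 1 CPM), genes overlapping their exons, and the 3 nearest profiles to the largest called rise and fall. There was no called rise. TGFB1, TCF3, TGFBR2, ACVR2B, ACVR1B, HES1, SMAD1, SMAD2, SMAD9, VWF, PECAM1, CDH5 and the neighbours of ID3 were named after their values were seen.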

Additional observations from a re-analysis of the deposited data

How the results depend on the processing

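The log2 fold changes of SMAD3, SMAD6, SKIL, ID1, ID4 and TGFBI kept their direction and their side of the threshold in 12 of 12 alternatives, those of ID2 in 9 and those of SMAD7 in 5, and none of the 8 changed direction. SMAD7 had a log2 fold change of 0.31 with DESeq2 (adjusted p = 0.127), 0.30 without the low-count filter, and between 0.26 and 0.34 with 1 library left out. ID2 had −0.49 with DESeq2, and between −0.59 and −0.39 with 1 library left out. The number of SMAD and ID targets higher past the adjusted p was therefore 1 in place of 2 with DESeq2, without the filter, and whichever library was left out. The stricter test glmTreat is not among those 12 alternatives. With it, 377 genes in place of 1046 were higher and 748 in place of 1564 lower. Of the SMAD and ID targets, 1 in place of 3 was lower. The 25 genes named from the lists by the rule gave 297 results on the same side of the adjusted p, 2 weaker and 0 reversed. The 2 weaker were SMAD4 (log2 fold change 0.23) and NEDD4L (−0.25), each without Erastin replicate 1. Of the 299 results, 3 lost the call past both thresholds through the fold, FSTL3 in 2 and TGFBR3 in 1, each with 1 library left out.

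With a replicate block, SMAD7 had a log2 fold change of 0.30 (edgeR adjusted p = 0.0543), which left 1 gene higher in place of 2. The labels number the replicates without pairing them, and the deviations of same-numbered libraries correlated at 0.0293. Library totals moved the median of all genes from −0.0026 to 0.047.

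Levels per length, their order and the ratios of SKIL to SMAD3 and of SMAD7 to SMAD6 depend on the transcript used. With 2 libraries a group, changes as small as that of SMAD7 are at the limit of this design. ID4 and SMAD6 are limited by their few counts.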
